A study of Homo sapiens with 6 samples.

Results

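Chromatin accessibility at 37 NF-κB pathway genes was examined in MM.1S cells, an established human multiple myeloma line, treated with CB-6644 or with DMSO. CB-6644 is a small molecule that blocks ATP hydrolysis by RUVBL1 and RUVBL2, partner proteins found in several chromatin remodeling complexes. The genes were taken by name as NF-κB subunits, inhibitors, kinases, adaptors, receptors, feedback regulators and known target genes, and they are 37 of the 20033 protein-coding genes of the GENCODE annotation. The treated group comprised 3 Omni-ATAC libraries from cells held in 120 nM CB-6644 for 72 h, and the control group comprised 3 libraries of cells given DMSO, for which the label states no duration. All 6 libraries came from the same line and, per the study's methods, from cells sorted as alive, so cells that died during treatment are not represented. Each library is a list of accessible regions (peaks) called on the hg38 genome. Peaks of all libraries that overlapped were merged into 89196 regions, and 403 of these lay in member loci, defined as the gene body plus 50 kb on each side. A shared region is one called in all 6 libraries, and a DMSO-only or CB-6644-only region is one called in all 3 libraries of that group and in none of the other.

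NF-κB proteins are dimeric transcription factors that inhibitor proteins of the IκB family hold inactive in the cytoplasm. In the canonical branch, receptors such as the TNF receptor activate the IκB kinase complex, which marks IκB for destruction and frees RELA and REL dimers, while in the noncanonical branch CD40 or the lymphotoxin-beta receptor stabilize the kinase NIK (MAP3K14), which drives NFKB2 processing and RELB activity. Released dimers bind a short consensus sequence and switch on, among others, genes for their own inhibitors. In multiple myeloma, mutations of TRAF3, CYLD, BIRC2, BIRC3 and MAP3K14 are a recognized route to constitutive activity of this pathway.

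The libraries held 58563 to 79020 peaks and differed in depth and in the length of their shortest peak. The shortest peak, which may follow the fragment length used by the caller, was 91 bp in DMSO 1 and 65 bp in CB-6644 2. In the other 4 libraries it was 131 to 152 bp. The sets are called short-fragment and long-fragment libraries below. No label or caller setting states a fragment length, so these names rest on the shortest peak alone. Caller background, a measure of depth, ranged from 3.20 tags per kb in CB-6644 2 to 9.08 in DMSO 2. The lowest pile-up of tags called as a peak was 6 to 8 in the DMSO libraries and 4 to 8 in the CB-6644 libraries. Strength is therefore given as a percentile within each library, where 100 is the strongest peak by −log10 p. Of 9 plasma cell markers, 7 had a promoter region called in all 6 libraries (CD38, IRF4, MZB1, PRDM1, SDC1, TNFRSF17 and XBP1), and the 4 T cell markers had no promoter peak in any library. A promoter region was called in all 6 libraries for 1 of 4 B cell, 1 of 4 myeloid, 1 of 4 stromal and 2 of 3 erythroid markers.

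The regulatory sequence that the pathway's own promoters carry is shown first, since many of these genes are themselves NF-κB targets. Among the 31 members matched by symbol in the RefSeq promoter table (GRCh38.p14, 250 bases before to 50 after the start site), 8 promoters (25.8%) held the NF-κB consensus on either strand, compared with 11.3% of 35116 RefSeq promoters. BCL3 held its match just after the start site, within the transcript. The windows of the 7 others are printed 5′ to 3′ on the strand of the gene, with the bases that match the consensus in capitals.
REL, chr2:60881518-60881546, match 47 bases before the start site: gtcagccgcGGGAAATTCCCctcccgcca
NFKB1, chr4:102501300-102501329, match 49 bases before the start site: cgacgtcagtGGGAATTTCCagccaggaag
NFKBIA, chr14:35404811-35404840, minus strand, match 81 bases before the start site: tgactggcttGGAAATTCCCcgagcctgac
NFKBIZ, chr3:101827757-101827786, match 223 bases before the start site: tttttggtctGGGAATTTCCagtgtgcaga
TRAF3, chr14:102777406-102777435, match 33 bases before the start site: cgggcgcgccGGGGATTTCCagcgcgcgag
TNFAIP3, chr6:137867188-137867217, matches 67 and 55 bases before the start site: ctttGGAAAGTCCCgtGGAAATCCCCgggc
BIRC3, chr11:102317275-102317368, matches 199 and 135 bases before the start site: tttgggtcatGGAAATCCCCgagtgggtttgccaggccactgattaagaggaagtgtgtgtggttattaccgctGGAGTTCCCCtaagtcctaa
NFKB1 and NFKBIZ shared the same 10 letters, and TNFAIP3 and BIRC3 each held 2 matches that do not overlap. The NFKBIZ window overlaps an exon of NXPE3. It lies outside the strongest NFKBIZ promoter region (chr3:101848981-101850106), whose percentiles are given below. In REL the capitals run 11 bases because overlapping matches lay on the same stretch.

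Promoters of the pathway were accessible in both groups. A region called in all 6 libraries lay within 1000 bp of a transcription start site (TSS) for 36 of 37 members, against 66.3% of protein-coding genes. The exception was LTBR, which encodes the lymphotoxin-beta receptor, with no promoter peak in any library, as in 27.7% of protein-coding genes. No library called a peak anywhere in the LTBR gene body (chr12:6375045-6391571). The members had 67 promoter regions over all their start sites, of which 51 were shared, 2 were DMSO-only and none was CB-6644-only. The strongest promoter region of 17 members averaged above the 90th percentile over the libraries. The limma test on log2 fold enrichment, adjusted over all 42089 shared regions, called none of the 36 strongest promoter regions different between the groups, and 1 reached an unadjusted p under 0.05. A fit on summit pile-up with the fragment set (short or long) as a covariate was added after the data were seen. In it 2 of the 36 were called weaker, CCL3 and CCL4, and 3 stronger, NFKB1, TAB2 and TRAF3. Of all 42089 shared regions, that fit called 12.7% weaker and 11.6% stronger. The differences in fold enrichment (CB-6644 minus DMSO) ranged from -1.12 to 0.45 on the log2 scale, with a median of 0.13. Of the 36, 33 were above 0, against 53.7% of all shared regions, a background not limited to promoters. On pile-up with the fragment set some of the 33 were below 0, so the sign depended on the measure.

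**Figure D1:**
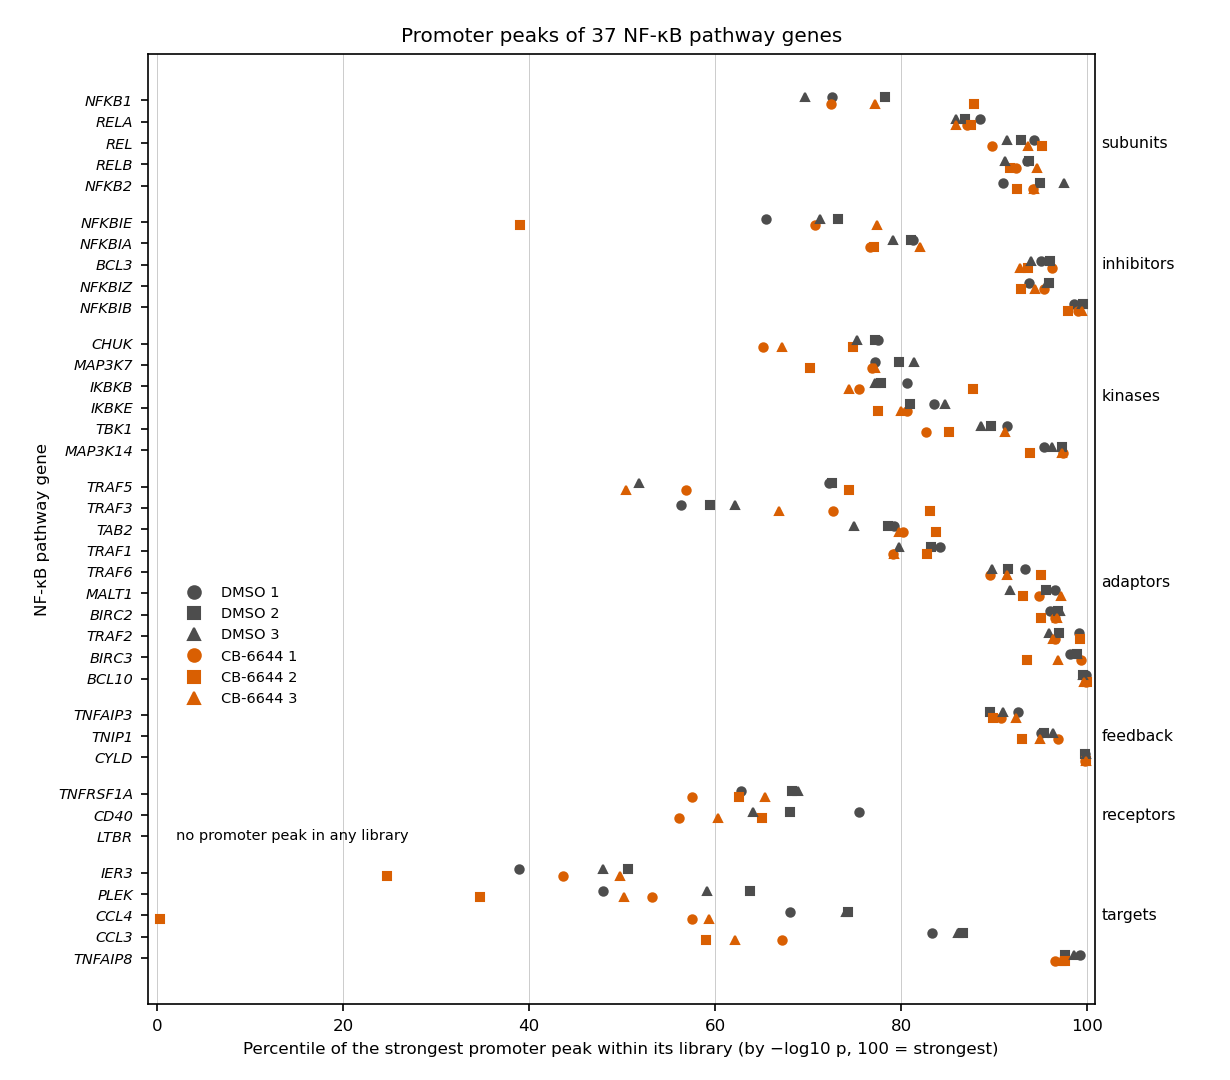
Percentile of the strongest promoter region of each NF-κB pathway gene within each library (x axis), with genes on the y axis grouped by role. Grey symbols are the 3 DMSO and orange symbols the 3 CB-6644 libraries. CYLD and BCL10 sit at the far right in all 6 libraries, CCL3 and CCL4 have every orange symbol left of every grey one, and LTBR has no promoter peak.

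Among the 5 subunits, promoter percentiles overlapped between the groups for each gene. RELA, the main transactivating subunit, stood at 88.5, 86.8 and 85.9 in the DMSO libraries and 87.1, 87.5 and 85.9 in the CB-6644 libraries. RELB, its noncanonical counterpart, stood at 93.5, 93.8 and 91.2 with DMSO and 92.3, 91.7 and 94.6 with CB-6644. REL, the lymphoid subunit, stood at 94.3, 92.8 and 91.3 against 89.8, 95.1 and 93.6. These 3 promoters thus differed between groups by less than they did among libraries. NFKB2, the precursor cleaved in the noncanonical branch, ranged from 91.0 to 97.5. NFKB1, the precursor of the canonical branch, was the weakest of the subunit promoters, at 72.6, 78.2 and 69.7 with DMSO and 72.5, 87.9 and 77.2 with CB-6644, and its highest value came from the short-fragment library CB-6644 2. Its difference was 0.40 with a standard error (SE) of 0.25 (limma adjusted p = 0.495), and 0.42 on pile-up with the fragment set (SE 0.14, limma adjusted p = 0.04).

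The inhibitors showed the same picture. NFKBIA, which encodes IκBα and is the classical feedback target, stood at 81.3, 81.0 and 79.1 with DMSO and at 76.6, 77.1 and 82.0 with CB-6644. NFKBIB (IκBβ) ranged from 98.0 to 99.5 over the libraries. NFKBIZ and BCL3, nuclear members of the IκB family, ranged from 92.8 to 95.9 and from 92.7 to 96.2. NFKBIE (IκBε) was the most variable, at 65.4, 73.2 and 71.3 with DMSO and 70.8, 39.0 and 77.4 with CB-6644, where the low value was again CB-6644 2. By percentile, the strongest promoter region of no inhibitor separated the groups. BCL3 had another promoter region, at its canonical TSS, which is described further below.

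The 6 kinases divided into strong and intermediate promoters. MAP3K14, the noncanonical kinase NIK, stood at 95.3, 97.2 and 96.2 with DMSO and 97.3, 93.8 and 97.3 with CB-6644. TBK1, an IKK-related kinase of innate signaling, ranged from 82.7 to 91.4, and its relative IKBKE stood at 83.5, 81.0 and 84.7 with DMSO against 80.6, 77.5 and 80, lower in every treated library (0.10 on fold enrichment, SE 0.20, limma adjusted p = 0.832). Of the IκB kinases proper, IKBKB (IKKβ) ranged from 74.4 to 87.7. CHUK (IKKα) stood at 77.5, 77.2 and 75.3 with DMSO and 65.2, 74.9 and 67.2 with CB-6644, so that every treated library was below every control. MAP3K7 (TAK1, which activates the IKK complex) likewise stood at 77.2, 79.8 and 81.3 against 76.9, 70.2 and 77.1. Neither gene passed the test on fold enrichment, at -0.21 (SE 0.11, limma adjusted p = 0.429) for CHUK and 0.04 (SE 0.13, limma adjusted p = 0.899) for MAP3K7. At MAP3K7 and IKBKE the fold enrichment difference was above 0, opposite in direction to the percentiles.

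Adaptors and feedback regulators included the strongest promoters. BCL10, which with MALT1 links antigen receptors to IKK, stood above 99.5 in every library, and MALT1 ranged from 91.7 to 97.2. BIRC2 and BIRC3, ubiquitin ligases that hold NIK at low levels together with TRAF2 and TRAF3, ranged from 95.1 to 97.0 and from 93.5 to 99.3, and TRAF2 from 95.8 to 99.2. TRAF6, the adaptor of Toll-like and IL-1 receptors, ranged from 89.5 to 95. TRAF1, an NF-κB-inducible adaptor, ranged from 79.2 to 84.2. TAB2, which couples TAK1 to ubiquitin chains, stood at 79.2, 78.5 and 74.9 with DMSO and 80.1, 83.8 and 79.7 with CB-6644, a narrow separation with a difference of 0.26 (SE 0.14, limma adjusted p = 0.423) and of 0.36 on pile-up with the fragment set (SE 0.12, limma adjusted p = 0.0394). TRAF5 was low and variable, from 50.5 to 74.3. The feedback regulators CYLD and TNFAIP3, both deubiquitinases, ranged from 99.7 to 99.9 and from 89.6 to 92.6, and TNIP1, the partner of TNFAIP3, from 93.0 to 96.8.

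TRAF3, a brake on the noncanonical branch, had several promoters. Its strongest promoter region lay far inside the gene at an alternative TSS (chr14:102901106-102902158, 124 kb from the canonical TSS) and stood at 56.3, 59.5 and 62.2 with DMSO and at 72.7, 83.1 and 66.8 with CB-6644. The groups did not overlap, and the difference of 0.45 (SE 0.17) had an unadjusted p of 0.0249 and an adjusted p of 0.261 by limma. On pile-up with the fragment set it was 0.89 (SE 0.17, limma adjusted p = 0.000872). The region at the canonical TSS, beside the consensus match printed above, was called in 2 of 3 DMSO and 3 of 3 CB-6644 libraries.

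Receptors and target genes had the weaker promoters. CD40, the receptor for T cell help, stood at 75.4, 68.0 and 64.1 with DMSO and 56.2, 65.0 and 60.3 with CB-6644, and TNFRSF1A, the main TNF receptor, ranged from 57.5 to 68.9. Of the targets, TNFAIP8, a regulator of cell survival, ranged from 96.6 to 97.6 with CB-6644 and from 97.7 to 99.2 with DMSO. Its fold enrichment differed in the other direction, by 0.13 (SE 0.15, limma adjusted p = 0.708). IER3, an immediate early survival gene, ranged from 24.7 to 50.7, and PLEK, the protein kinase C substrate pleckstrin of blood cells, from 34.7 to 63.8. In both genes the lowest value was that of CB-6644 2.

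The chemokine genes CCL3 and CCL4, NF-κB targets that myeloma cells secrete, had promoter peaks of lower rank in every treated library. The CCL3 promoter region (chr17:36089879-36090684) stood at 83.3, 86.6 and 86.1 with DMSO and at 67.1, 59.0 and 62.2 with CB-6644. Its summit pile-up was 147, 256 and 256 tags with DMSO and 88, 26 and 96 tags with CB-6644, but its fold enrichment over local background was 17.6, 14.0 and 11.2 against 12.3, 16.1 and 11.1. The fold enrichment differed by 0.01 (SE 0.21, limma adjusted p = 0.981). On summit pile-up with the fragment set the same region differed by -1.15 on the log2 scale (SE 0.13, limma adjusted p = 2.9e-06). The CCL4 promoter region (chr17:36103295-36104023) stood at 68.0, 74.3 and 74.1 against 57.5, 0.30 and 59.4. There the fold enrichment was 26.3, 25.6 and 23.5 with DMSO and 18.5, 4.14 and 19.3 with CB-6644, a difference of -1.12 (SE 0.55, limma adjusted p = 0.39) with no overlap between the groups. The call in CB-6644 2 rested on 4 tags, the lowest pile-up called in that library, and without that library the difference was -0.26 (limma adjusted p = 0.267). On pile-up with the fragment set the CCL4 region differed by -1.10 (SE 0.27, limma adjusted p = 0.00523). Both genes have near-identical copies in the same chromosomal cluster, and how reads with several matches were placed is not given in the sources used here, so their values are uncertain.

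Few regions of the pathway were present in 1 group only. Of the 403 regions in member loci, 245 (60.8%) were shared, 9 (2.23%) were DMSO-only and 4 (0.993%) were CB-6644-only. Over all 89196 regions the shares were 4.5% DMSO-only and 0.586% CB-6644-only. The member counts changed with the libraries used. Without CB-6644 2, 19 were DMSO-only (4.71%, against 5.89% of all regions), but leaving out a library relaxes the rule, so counts cannot fall. In the 4 long-fragment libraries 22 were DMSO-only and 10 CB-6644-only (5.46% and 2.48%, against 8.13% and 1.75% of all regions). After thinning those 4 to equal background, 11 were DMSO-only and 13 CB-6644-only. These were 3.73% and 4.41% of member regions, against 6.22% and 4.57% of all regions then merged. A DMSO-only region lay in the locus of 7 members (19.8% of protein-coding loci had one), a CB-6644-only region in the locus of 4 (4.29% of protein-coding loci), and 26 members had neither. The remaining 145 regions were called in other combinations of libraries, 72 of them (49.7%) in more DMSO libraries, 56 (38.6%) in more CB-6644 libraries and 17 in as many of each. Over all such regions 58.7% leaned to DMSO and 25.6% to CB-6644. The 5 inhibitor loci and the 3 feedback loci held no region of either kind.

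PLEK held 3 of the 9 DMSO-only regions. The strongest, 47.0 kb from the TSS (chr2:68411845-68412437, intergenic), reached the 61.8th, 64.0th and 44.8th percentiles, with summit pile-ups of 55, 90 and 57 tags. At the same pile-up relative to caller background, the CB-6644 libraries would have held 56.4, 15.0 and 70.7 tags there, above the lowest pile-up called in each. That lowest pile-up need not suffice for a call at this site, and whether depth accounts for the absence was not tested. The region 55.2 kb from the TSS (chr2:68420375-68420545, intergenic) reached the 55.9th, 43.2nd and 28.6th percentiles. The weakest lay in an intron of PLEK beside an alternative TSS (chr2:68388905-68389282), at the 0.96th, 2.29th and 17.9th percentiles. Scaled in the same way it would have held 23.9, 6.37 and 30 tags in the CB-6644 libraries, of which the value for CB-6644 2 lay little above its weakest call of 4. PLEK thus had control peaks of middle and of marginal strength that no treated library called.

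The other DMSO-only regions were spread over 6 loci. REL had one 9.0 kb before its TSS (chr2:60872436-60872837), at the 35.9th, 30.5th and 28.7th percentiles with pile-ups of 23, 33 and 34 tags. The IKBKE locus had one in an intron of the neighboring gene RASSF5 (chr1:206517576-206517881), at the 48.8th, 19.9th and 37.5th percentiles. The MAP3K14 locus had one 12.8 kb before the TSS (chr17:45329537-45330017), at the 12.7th, 32.5th and 39.2nd percentiles. These 3 were of low to middle strength in the controls. TNFAIP8 had one in an intron (chr5:119366580-119366742, from the 7.78th to the 32.2nd percentile), MALT1 had one 31.2 kb before its TSS (chr18:58639953-58640345, from the 3.84th to the 31.4th percentile), and TAB2 had one at an alternative TSS (chr6:149217577-149217848, from the 11.5th to the 18.5th percentile). At the TAB2 and MALT1 regions the pile-up scaled from the DMSO mean to CB-6644 2 was 3.72 and 3.78 tags. These values lay just below the 4 tags of that library's weakest call, so such regions might or might not be called there. The scaling is rough, since pile-up over caller background differed between libraries. At the RELA promoter it was 389 in CB-6644 2 and 149 to 187 in the long-fragment libraries, and at NFKBIE 135 and 122 to 170. Whether depth accounts for the absence of any DMSO-only region was not tested.

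The 4 CB-6644-only regions lay at adaptor and receptor loci. One region 16.5 kb before the BIRC3 TSS (chr11:102300933-102301132, intergenic) belonged to the loci of both BIRC3 and BIRC2 and reached the 41.7th, 20.9th and 32.5th percentiles, with pile-ups of 35, 10 and 33 tags. A region in an intron of TMEM123 within the BIRC2 locus (chr11:102421358-102421544) reached the 22.1st, 10.6th and 18.3rd percentiles. A TRAF5 intron held one (chr1:211341198-211341476), at the 16.7th, 1.01st and 17.1st percentiles, and the LTBR locus another, 48.5 kb from its TSS (chr12:6432582-6432803), at the 37.5th, 10.6th and 35.2nd percentiles. All 4 were weakest in CB-6644 2, where they rested on 6 to 10 tags. At the treated libraries' mean, DMSO 1 would have held 15.2 to 24.6 tags at these sites, and its weakest call anywhere had 6 tags. The pile-up needed for a call at these sites is not given. Whether depth accounts for the missing calls was not tested.

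**Figure D2:**
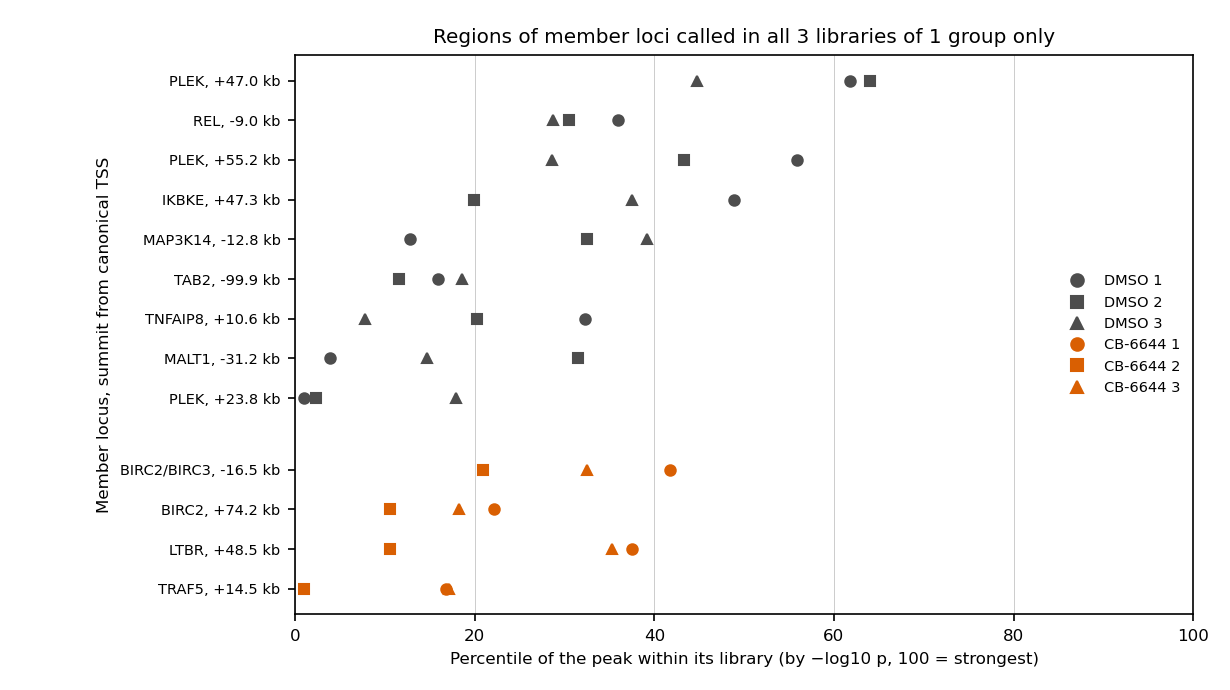
Percentile within its library (x axis) of each region in a member locus that was called in all 3 libraries of 1 group and in none of the other. Rows name the locus and the distance of the summit from the canonical TSS, grey symbols are DMSO and orange symbols CB-6644 libraries. The PLEK region 47.0 kb from the TSS is the strongest, and no CB-6644-only region passes the 41.7th percentile.

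The group-only regions were searched for 5 motifs within 100 bp of the summit, on both strands. These were the NF-κB consensus, AP-1 (TGANTCA), the ATF4-CEBP composite site (TGATGNAA), MAF (TGCTGAC) and an E-box (CAGGTG). Of the 9 DMSO-only regions, 1 held the NF-κB consensus (2.96% of all DMSO-only regions), 2 ATF4-CEBP (12.7%), 3 an E-box (22.4%) and none AP-1 (11.9%) or MAF (3.16%). Of the 4 CB-6644-only regions, 2 held MAF (17.8% of all CB-6644-only regions), 2 an E-box (41.5%) and none NF-κB (13.0%), AP-1 (15.1%) or ATF4-CEBP (2.10%). The counts are small, and a match is a description of letters only. The matched stretches are printed on the plus strand of hg38 with the motif in capitals, for the NF-κB, ATF4-CEBP and MAF matches.
TNFAIP8 intron, DMSO-only, NF-κB, chr5:119366696-119366725: cctaacttcgGGGGGTTTCCctcattaaca
PLEK 55.2 kb, DMSO-only, ATF4-CEBP, chr2:68420441-68420488: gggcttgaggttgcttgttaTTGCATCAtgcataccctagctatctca
MAP3K14 12.8 kb before the TSS, DMSO-only, ATF4-CEBP, chr17:45329756-45329803: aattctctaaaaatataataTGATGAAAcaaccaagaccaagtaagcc
TRAF5 intron, CB-6644-only, MAF, chr1:211341380-211341426: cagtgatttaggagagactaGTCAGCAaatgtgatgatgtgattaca
BIRC2 locus, TMEM123 intron, CB-6644-only, MAF, chr11:102421494-102421540: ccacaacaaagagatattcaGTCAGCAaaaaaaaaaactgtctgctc
Both MAF matches read on the minus strand of the genome. In TNFAIP8 an overlapping NF-κB match runs 1 base further and is not in capitals.

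Peak numbers per locus separated the groups at 4 genes. Fewer peaks in every treated library than in any control were counted at 2 member loci (6.91% of protein-coding loci), and more at 2 (0.484%). The REL locus held 5, 7 and 6 peaks with DMSO and 3, 3 and 3 with CB-6644, a mean difference of -3.0. The PLEK locus held 17, 15 and 13 peaks with DMSO and 10, 10 and 10 with CB-6644, a mean difference of -5.0. In both loci the lowest control was above the highest treated library. The MAP3K7 locus held 6, 6 and 5 peaks against 7, 8 and 7, and the BIRC2 locus 7, 7 and 6 against 8, 10 and 8. The loci were picked for this separation, so no test is given, and 3 against 3 libraries cannot go below 0.1 in an exact two-sided permutation test. The libraries also differed in their total of peaks, and with the locus drawn at 20 kb on each side BIRC2 no longer separated, while at 100 kb neither BIRC2 nor MAP3K7 did.

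**Figure D3:**
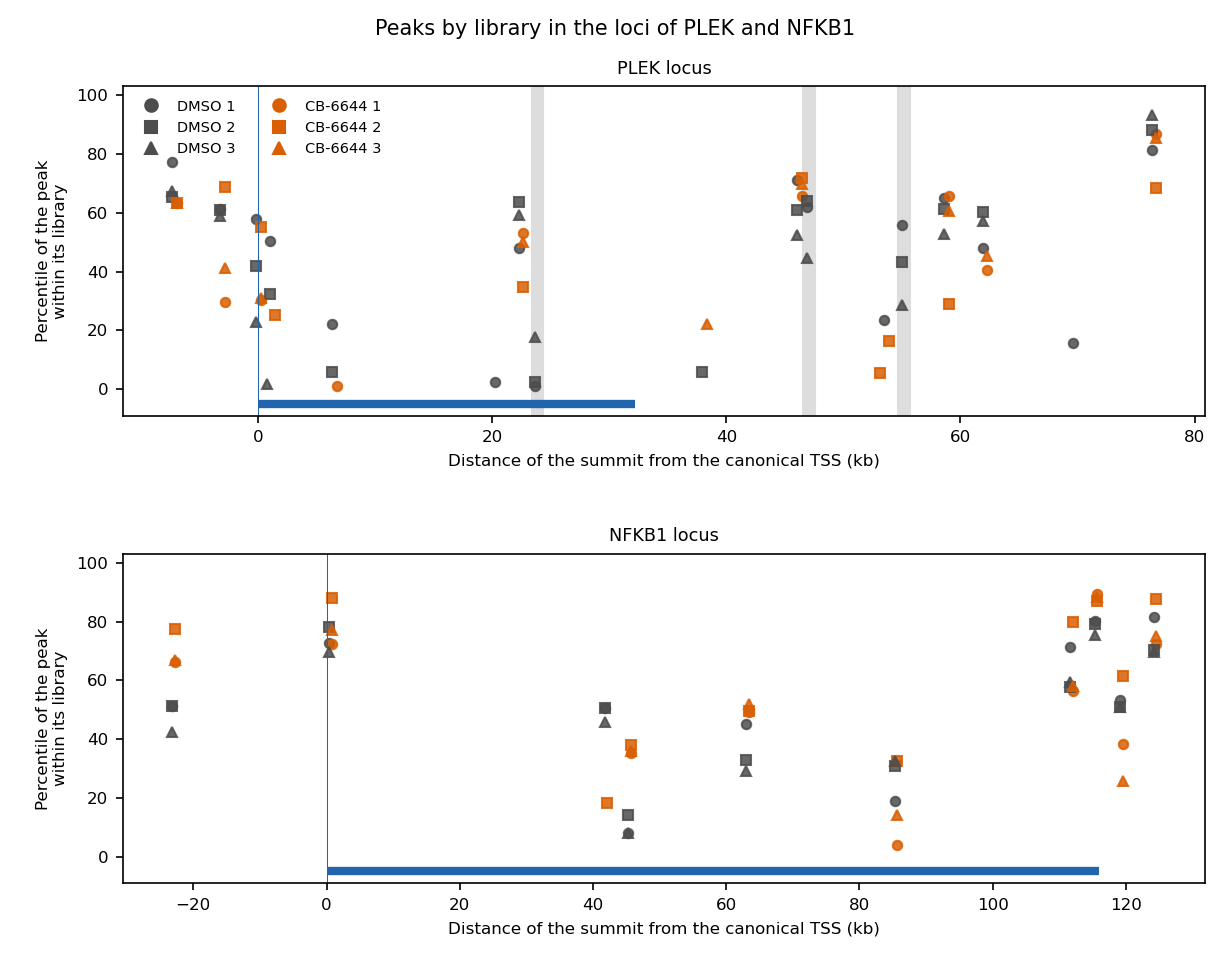
Percentile of each peak within its library (y axis) against the distance of the region's summit from the canonical TSS in kb (x axis) for the PLEK and NFKB1 loci. Grey symbols are DMSO and orange symbols CB-6644 libraries, the blue bar is the gene body, and light bands mark the 3 DMSO-only regions of PLEK. In NFKB1 the orange symbols lie above the grey ones at the region 23 kb before the TSS, at the intronic region 45.4 kb after it and at the region at 115.5 kb.

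The strength of the 245 shared regions was compared next. The limma test on quantile-normalized log2 fold enrichment called 1 region weaker with CB-6644 and 0 stronger at an adjusted p under 0.05, and 26 reached an unadjusted p under 0.05. Over all 42089 shared regions, 0.418% were called weaker and 0.321% stronger, so the member counts are close to those shares. The median difference in member loci was 0.07 and 63.7% of differences were above 0, against 0.02 and 53.7% over all shared regions.

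The region called weaker lay in the CD40 locus, 6.9 kb before the TSS (chr20:46111179-46111596, intergenic). Its fold enrichment was 20.8, 17.4 and 15.1 with DMSO and 8.79, 7.77 and 8.36 with CB-6644, and its percentile fell from 76.7, 76.8 and 69.8 to 25.7, 18.1 and 23.8. Every treated library was below every control, with a difference of -0.94 (SE 0.18, limma adjusted p = 0.0472). Over the alternatives tried the adjusted p ranged from 1.6e-06 to 0.273 and the difference stayed below 0. The call was lost with 5 of the 6 libraries left out in turn (0.0999 to 0.273) and held without CB-6644 2 (0.0157). The CD40 promoter itself, 6.9 kb away, differed by -0.15 (SE 0.17, limma adjusted p = 0.706). The sequence under the weakened summit held none of the 5 motifs within 100 bp, and 61 bases are shown on the plus strand.
CD40 upstream region, chr20:46111360-46111420: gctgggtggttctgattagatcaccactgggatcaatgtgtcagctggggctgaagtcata

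The other large decreases did not pass the test on fold enrichment without a fragment-set term. In the TNFAIP3 locus, a region 25.4 kb after the TSS (chr6:137892357-137892817, intergenic) had fold enrichments of 41.6, 33.7 and 29.8 with DMSO and 20.9, 24.7 and 25.8 with CB-6644, a difference of -0.50 (SE 0.10, limma adjusted p = 0.0568). In TAB2, an intronic region (chr6:149266698-149267193) had 21.3, 23.6 and 18.8 against 13.5, 5.79 and 15.2, a difference of -0.90 (SE 0.33, limma adjusted p = 0.238). In both regions the groups did not overlap. With the fragment set as a covariate both passed (limma adjusted p = 0.00591 for TNFAIP3 and 0.0143 for TAB2), as they did in the long-fragment libraries, and without CB-6644 2 the TAB2 difference was -0.42 (limma adjusted p = 0.148) and the TNFAIP3 region passed (-0.41, limma adjusted p = 0.0282). The RELB locus had one in an intron of CLASRP (chr19:45049334-45049635), with 26.2, 16 and 15.9 against 10.1, 22.4 and 9.75, where the groups overlapped (-0.46, SE 0.29, limma adjusted p = 0.508). That value rested on single libraries, at -0.76 without CB-6644 2 (limma adjusted p = 0.0431), -0.26 without CB-6644 3 and -0.30 without CB-6644 1. With all libraries the largest value was that of the CCL4 promoter given above, which without CB-6644 2 was smaller than the other 4. The TAB2 region was the one of these 5 with a consensus match: TAB2 intron, chr6:149266900-149266929: atgcaaaaggGGAACACCCCagtttcatga

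The 5 largest increases lay in introns and between genes, and none passed the test on fold enrichment without a fragment-set term. With the fragment set as a covariate all 5 passed, at limma adjusted p values from 0.00447 for NFKB1 to 0.0496 for NFKBIA, and all but NFKBIA passed in the long-fragment libraries. In an NFKB1 intron (chr4:102546620-102546843, 45.4 kb after the TSS), fold enrichment was 7.10, 7.58 and 6.76 with DMSO and 13.5, 11 and 14.4 with CB-6644, a difference of 1.01 (SE 0.20, limma adjusted p = 0.0556). In a TNFAIP8 intron (chr5:119347621-119347872), it was 8.04, 6.09 and 5.04 against 11.2, 11.5 and 12.1, a difference of 1.0 (SE 0.20, limma adjusted p = 0.0539). In the TRAF1 locus, in an intron of C5 (chr9:120971939-120972243), it was 10.7, 7.77 and 8.52 against 14.0, 12.4 and 21.0, a difference of 0.96 (SE 0.23, limma adjusted p = 0.0886). In these 3 regions every treated library exceeded every control, and each region was weak, with control pile-ups of 12 to 23 tags. In a TRAF5 intron (chr1:211329845-211330225), it was 11.5, 6.81 and 7.11 against 12.1, 21.9 and 12.0 (0.88, SE 0.26, limma adjusted p = 0.152), separated by a narrow margin. In the NFKBIA locus, 13.5 kb after the TSS (chr14:35391017-35391318), it was 8.21, 11.9 and 5.38 against 16.1, 13.2 and 11.1 (0.87, SE 0.28, limma adjusted p = 0.187), with overlap between the groups. None of the 5 held the NF-κB consensus within 100 bp of the summit. The summits of the NFKB1 and TNFAIP8 regions, which came nearest to the threshold, are shown on the plus strand.
NFKB1 intron, chr4:102546778-102546838: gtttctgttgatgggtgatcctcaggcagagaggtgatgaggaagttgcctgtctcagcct
TNFAIP8 intron, chr5:119347765-119347825: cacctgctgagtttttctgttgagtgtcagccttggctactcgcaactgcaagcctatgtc

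**Figure D4:**
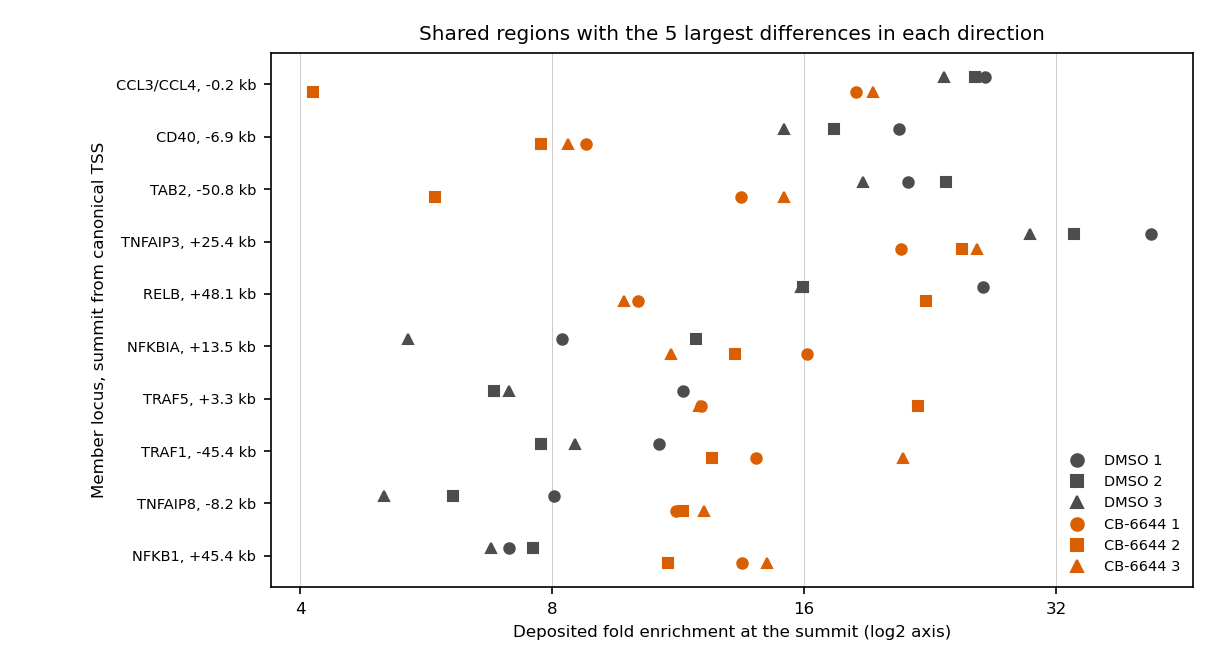
Deposited fold enrichment at the summit in each library (x axis, log2 scale) for the shared regions with the 5 largest decreases (upper rows) and increases (lower rows) with CB-6644. Rows name the locus and the distance of the summit from the canonical TSS. Grey DMSO and orange CB-6644 symbols do not overlap at any of these regions except that in the RELB locus in the upper rows and that in the NFKBIA locus in the lower rows.

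The number of calls depended on how the short-fragment libraries were treated. With the fragment set as a covariate, 7 member regions were called weaker and 11 stronger on fold enrichment, against backgrounds of 6.09% and 4.22% of all shared regions. On summit pile-up with the fragment set, 17 were called weaker and 33 stronger, against 12.7% and 11.6%. With the 4 long-fragment libraries alone, 6 were weaker and 11 stronger of 257 shared regions, against 2070 and 1434 of 47854 over all loci. In the pile-up fit with the fragment set, 10 of 38 shared regions in subunit loci were stronger and 1 was weaker, while in target loci 2 of 34 were stronger and 7 weaker. By the same counts inhibitor loci had 6 stronger and 2 weaker of 35, kinase loci 4 and 0 of 34, adaptor loci 8 and 4 of 65, feedback loci 2 and 1 of 21 and receptor loci 1 and 2 of 18. The contrast between subunit and target loci was smaller on fold enrichment with the fragment set. There subunit loci had 3 stronger and 0 weaker, and target loci 2 stronger and 1 weaker.

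NFKB1 held 7 of the 10 subunit regions that were stronger in the pile-up fit with the fragment set, among its 9 shared regions. At the region 23 kb before its TSS (chr4:102478154-102478635), the percentile was 51.3, 51.3 and 42.6 with DMSO and 66.2, 77.6 and 66.9 with CB-6644. That region differed by 0.59 on fold enrichment (SE 0.13, limma adjusted p = 0.0734) and by 1.13 on pile-up with the fragment set (SE 0.18, limma adjusted p = 0.000107). In the UTR of NFKB1 (chr4:102616426-102616998), the percentile was 80.3, 79.3 and 75.4 against 89.4, 87.1 and 88.2, with a difference of 0.51 on fold enrichment (SE 0.18, limma adjusted p = 0.22). Together with the intron at 45.4 kb, these regions ranked higher in every treated library than in any control. In the RELB locus, an intronic region of CLPTM1 (chr19:44961024-44961766) had percentiles of 21.1, 42.8 and 34.6 against 71.0, 53.8 and 58.5, and a difference of 0.57 on fold enrichment (SE 0.26, limma adjusted p = 0.346).

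In target loci 7 regions were weaker and 2 stronger in that fit, but 1 was weaker and 2 stronger on fold enrichment with the fragment set. The 7 comprised 4 in the TNFAIP8 locus and 3 in the shared CCL3 and CCL4 locus, and none lay at IER3 or PLEK. An intronic region of TNFAIP8 (chr5:119340453-119341064) had summit pile-ups of 210, 275 and 270 tags with DMSO and 92, 49 and 150 tags with CB-6644, and percentiles of 91.0, 88.9 and 89.8 against 68.2, 75.1 and 79.6. Its pile-up differed by -0.87 (SE 0.12, limma adjusted p = 3.5e-05), while its fold enrichment over local background, 22.2, 15.3 and 14.3 against 12.2, 20 and 15.9, gave no difference past the threshold (limma adjusted p = 0.997). As at CCL3, the pile-up and the fold enrichment thus gave different answers at this region. The BCL3 promoter at the canonical TSS (chr19:44747307-44748760) showed the opposite, with pile-ups of 96, 129 and 109 against 133, 91 and 211, a pile-up difference of 0.96 (SE 0.13, limma adjusted p = 1.5e-05) and a fold enrichment difference of 0.28 (SE 0.32, limma adjusted p = 0.712).

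**Figure D5:**
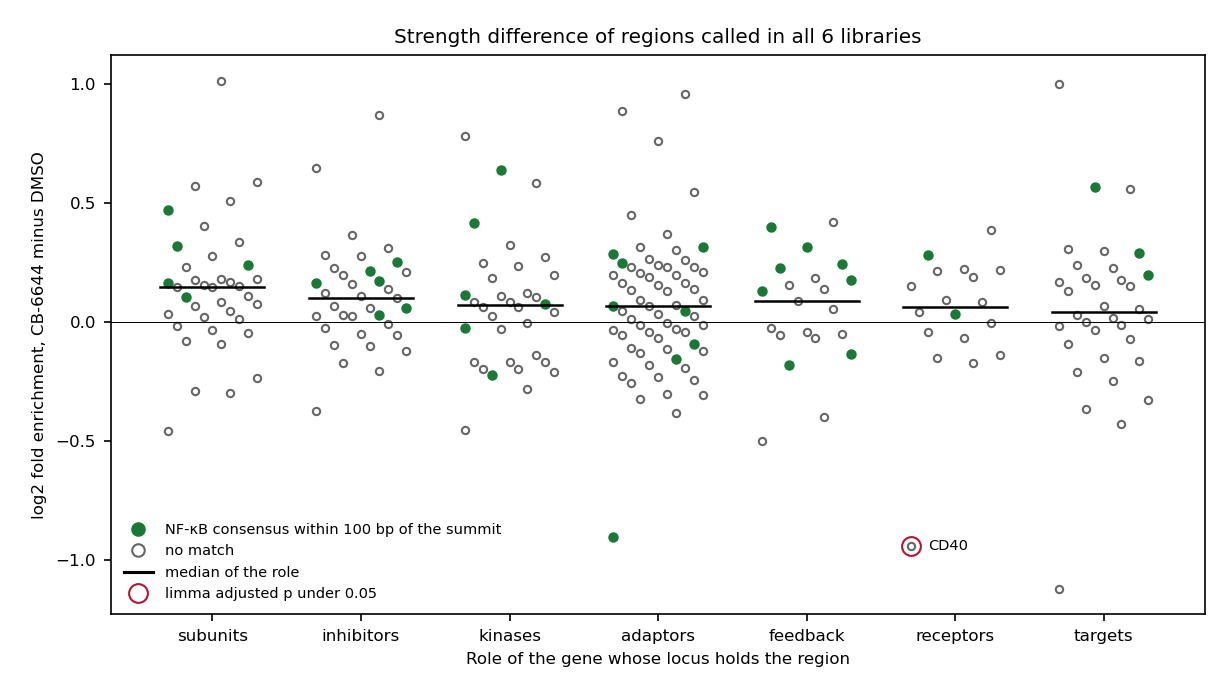
Difference in log2 fold enrichment, CB-6644 minus DMSO (y axis), of the 245 shared regions in member loci, by the role of the gene (x axis). Each circle is a region, filled green where the NF-κB consensus lies within 100 bp of the summit, bars are medians, and the red ring marks the CD40 region, the one past the limma threshold. Most green circles lie above 0.

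The NF-κB consensus was more frequent in the regions of these genes than in regions at large. It lay within 100 bp of the strongest summit in 51 of 403 member regions (12.7%), compared with 6.51% of all 89196 regions, and in 20 of 67 member promoter regions (29.9%), compared with 8.92% of promoter regions. By class, 38 of 245 shared member regions held it (15.5%, against 7.58% of all shared regions). Of the 20 promoter regions with a match, 18 were shared, and the other two, at TRAF3, were called in 5 and in 3 libraries. Promoters with a match in these regions included those of IKBKE, REL, PLEK, NFKBIZ, NFKBIE, TNFAIP3, IKBKB, TRAF2, NFKB2, BIRC3, TNFRSF1A, NFKBIA, TRAF3, CYLD and BCL3. Examples near the summits of shared regions, on the plus strand of hg38, are the following, of which the RASSF5 intron is an element 45.9 kb from the IKBKE TSS.
NFKB2 promoter, chr10:102395674-102395703: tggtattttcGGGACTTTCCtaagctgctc
CYLD promoter, chr16:50741887-50741916: ttgacagagcGGAAAGTCCCttcggccggc
PLEK inner promoter, chr2:68387749-68387778: ttcactttagGGGAAGTTCCacagtctgtt
RASSF5 intron, chr1:206516428-206516457: gcattcggaaGGGATTTCCCcgcattacac

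Shared member regions with the consensus had a median difference in fold enrichment of 0.17, with 81.6% of 38 above 0, and those without it had 0.06, with 60.4% of 207 above 0. Over all shared regions the medians were 0.07 with and 0.02 without the consensus, with 63.0% and 53.0% above 0. On pile-up with the fragment set the member medians were 0.06 with and 0.08 without, so their order in member loci depended on the measure. The shares above 0 were 68.4% with and 60.9% without. Over all shared regions the pile-up medians were 0.06 with and 0.01 without, the same order as on fold enrichment. No shared member region with the consensus passed the test on fold enrichment in either direction, and 1 was weaker and 1 stronger with the fragment set as a covariate. The RASSF5 intronic element had percentiles of 60.7, 64.6 and 49.7 with DMSO and 70.1, 72.9 and 69.2 with CB-6644, with a difference of 0.41 (SE 0.15, limma adjusted p = 0.23). It lay next to the DMSO-only region of the IKBKE locus, so that neighboring elements of this locus comprised one called in controls alone and one that ranked higher in every treated library.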

How the data were processed

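Omni-ATAC profiles accessible DNA by transposase insertion. The submitters' processing notes name Bowtie2 2.4.2, MACS3 3.0 and the hg38 build; caller settings are not given in the sources used here. The authors deposited 1 peak list per library, with fold enrichment at the summit (a ratio to local background) and −log10 p and −log10 q. No read counts were used here. Members and lists were chosen with earlier results of these data known.

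Peaks overlapping by 1 bp were merged, and each region took the strongest peak of each library. Whole summit pile-ups and local backgrounds were recovered from fold enrichment and −log10 p (within 0.01 for 100.0% of peaks). Genes came from GENCODE release 44. Shared regions were compared with limma 3.58.1 (R 4.3.3; trend, quantile normalization, Benjamini-Hochberg adjustment, threshold 0.05), tested on simulated data. The named regions are all 13 group-only regions, the strongest promoter region of each member, and the shared regions past the threshold or, with fewer than 5, the 5 largest differences in each direction; further regions named from alternative fits were chosen after their values were seen. Replicates have no stated cultures, so p-values measure the spread between libraries, which may be technical. Motif matches were searched on both strands in hg38 (1 item is not reported here), and promoter sequences are RefSeq's (31 of 37 members matched; the reference and file builds are both hg38). Alternatives were another threshold, equal peak numbers, other windows, other normalizations, a fragment-set term, a replicate block and leaving out each library.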

Additional observations from a re-analysis of the deposited data

How the results depend on the processing

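The 36 promoters accessible in all libraries numbered 24 to 36 under all alternatives, and 36 without any one library. DMSO-only and CB-6644-only regions in member loci, 9 and 4 as reported, remained 9 and 4 in number at a −log10 q of at least 5, and numbered 8 and 6 with equal peak numbers. They came to 1 and 4 with the 20000 strongest peaks of each library, where none of the 13 regions reported was still of its class, and to 20 and 8 with 2 of 3 libraries sufficing, 12 and 1 with 50% coverage, 22 and 10 in the 4 long-fragment libraries, and 11 and 13 after thinning these to equal background. With loci of 20 kb on each side there were 6 and 2, and with 100 kb 11 and 4. Leaving out 1 library gave 10 to 19 DMSO-only regions (19 without CB-6644 2, 17 without DMSO 3) and 4 to 7 CB-6644-only regions (7 without DMSO 1 or CB-6644 2). The rule is looser with fewer libraries, so these counts could not fall. After thinning, 1 of the 9 DMSO-only regions, that of PLEK at 47.0 kb, was still of its class. Loci with fewer peaks numbered 4 and those with more 1 at 100 kb, and those with more 1 at 20 kb.

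Weaker and stronger shared regions, 1 and 0 as reported, came to 7 and 11 with the fragment set as a covariate, 6 and 11 in the long-fragment libraries, 4 and 10 on ranks of −log10 p, 0 and 0 with median centring or with a −log10 p of at least 20, and, in fits chosen after seeing the data, 5 and 14 on summit pile-up and 17 and 33 on pile-up with the fragment set. Over all 42089 shared regions, ranks gave 1575 weaker and 1463 stronger, summit pile-up 2274 and 1978, and median centring 0 and 0. With a −log10 p of at least 20 there were 28 and 22 of 32171. Leaving out 1 library gave 0 to 3 weaker and 0 to 4 stronger in member loci. Without CB-6644 2 there were 3 and 4, against 1132 and 764 of 46630 over all loci. The replicate block gave 0 and 0, in member loci and over all shared regions, but no label states that replicate numbers pair the samples. Correlations of deviations between libraries of the same number were -0.48, -0.33 and 0.33. They cannot decide on pairing, since numbers 1 and 2 each set a short-fragment against a long-fragment library. Within 50 bp of the summit the consensus lay in 25 member regions (6.20%, against 3.60% of all regions) in place of 51. The cause of these shifts was not tested. Peak lists show whether a region passed a caller at each depth, so an absent peak is not shown to be closed chromatin, and CB-6644 2, the shallowest library, limits what could be seen.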

Other observations

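A further 48 genes of the pathway, from receptors and ligands to textbook targets, were listed alongside the members and counted in the same way. They had 471 regions, of which 290 were shared, 9 (1.91%) DMSO-only and 6 (1.27%) CB-6644-only. Over all merged regions the shares were 4.5% DMSO-only and 0.586% CB-6644-only. The loci of the lists overlap in part, and the CB-6644-only region of CD27 is the one described for the LTBR locus. A shared promoter region was found for 40 of the 48 genes, against 66.3% of protein-coding genes. TNF, LTB, CXCL8 and TNFSF11 had no promoter peak in any library, as in 27.7% of protein-coding genes. CXCL10 and NLRP3, an interferon-inducible chemokine and an inflammasome sensor, each had a CB-6644-only region at a promoter and no shared one, and GADD45B, a stress-response gene, had a DMSO-only region at a promoter beside a shared one. TRADD and NLRP3 had 1 region of each kind. The limma test on fold enrichment called 1 of the 290 shared regions weaker and 0 stronger (0.418% and 0.321% of all shared regions). With the fragment set as a covariate it called 7 and 8 (6.09% and 4.22% of all shared regions). On pile-up with the fragment set it called 30 and 33 (12.7% and 11.6% of all shared regions).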
